A study of Mus musculus with 2 samples.

Results

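The cells described here are tumor macrophages that carried RNA of the cell cycle machinery. They were 84 cells, 68 from a Met-1 tumor and 16 from a PyMT tumor, of 2727 cells kept from both tumors (2135 and 592). A kept barcode had at least 500 unique molecular identifiers (UMIs, each counting 1 captured RNA molecule) and at most 10% of them from mitochondrial genes. Macrophages and monocytes were the kept cells with at least 5 UMIs over Csf1r, C1qa, C1qb, C1qc, Lyz2 and Aif1 and with low counts of B cell, T cell, keratin, neutrophil and collagen genes, which gave 921 cells (746 Met-1, 175 PyMT). The cycling cells were selected on measured RNA: they were those with at least 3 UMIs over Mki67, Top2a, Cdk1, Birc5, Ube2c and Pclaf, called the 6 rule genes below, and the other 837 cells (678 and 159) served as non-cycling cells. The rule read the RNA itself, so the levels of cell cycle genes in these cells describe the selection and were not tested.

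Both libraries came from inAd-Chaser-mTmG mice on a C57BL/6 background. These mice carry Adiponectin-rtTA, TRE-Cre and a Rosa26 mT/mG reporter, so that doxycycline switches adipocytes, the cells in which the Adiponectin promoter is active, from membrane tdTomato to membrane EGFP. After the doxycycline pulse, dissociated breast tumors were sorted for EGFP+, tdTomato- cells and each sort was run as a single 10x Genomics library. The design text speaks of isolated tumor fibroblasts, and the macrophages were among the cells that the sort returned. The tumor labelled Met-1 xenograft had been implanted (Met-1 is a mouse mammary carcinoma line, whereas the series design names EO771 cells for the implanted arm), and the PyMT tumor arose in mice crossed to the polyoma middle T transgene, whose promoter the labels do not name. Ages, the doxycycline schedule and the number of mice behind each library are not given in the sources used here. With 1 library per tumor there was no replicate, no test was possible, and intervals cover counting error only.

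Most macrophages of adult tissue and tumors are replaced by blood monocytes or renew by dividing in place, and division of mature macrophages is driven mainly by CSF1 acting on its receptor, Csf1r. A dividing cell first licenses replication origins in G1, copies its DNA and makes new histones in S phase, and then builds the spindle and separates its chromosomes in mitosis. Genes of the first phase are switched on through E2F factors, and genes of mitosis largely through the MuvB complex with B-MYB and FOXM1, which acts at CHR elements, and through NF-Y at CCAAT boxes.

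The promoters of the 6 rule genes are shown because these genes define the cells, with that of Mcm5, a subunit of the replicative helicase, as an S-phase gene for comparison. Each line is the 150 bases directly before the start site in RefSeq (GRCm38.p6), 5' to 3' on the gene's strand. Capitals mark the CHR, spelled TTTGAA and, in its other form, TTCGAA, the CCAAT box and the E2F letters (TTTCCCGC, TTTGGCGC, TTTCGCGC or TTTGCCGC), searched on both strands, and none of these motifs contains another. The stretches lie at chr7:135716380-135716529, minus strand (Mki67), chr11:99024190-99024339, minus strand (Top2a), chr10:69352913-69353062, minus strand (Cdk1), chr11:117849087-117849236, plus strand (Birc5), chr2:164769779-164769928, plus strand (Ube2c), chr9:65890173-65890322, plus strand (Pclaf) and chr8:75109359-75109508, plus strand (Mcm5).
Mki67: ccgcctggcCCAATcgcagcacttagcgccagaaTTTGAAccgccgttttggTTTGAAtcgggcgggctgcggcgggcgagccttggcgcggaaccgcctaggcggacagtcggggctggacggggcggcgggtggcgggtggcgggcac
Top2a: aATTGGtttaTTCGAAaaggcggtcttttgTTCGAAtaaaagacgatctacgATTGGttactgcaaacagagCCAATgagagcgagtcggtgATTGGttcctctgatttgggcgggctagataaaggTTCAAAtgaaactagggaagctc
Cdk1: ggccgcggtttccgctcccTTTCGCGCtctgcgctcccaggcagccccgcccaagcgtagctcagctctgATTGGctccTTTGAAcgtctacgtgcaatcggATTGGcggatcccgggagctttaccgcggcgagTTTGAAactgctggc
Birc5: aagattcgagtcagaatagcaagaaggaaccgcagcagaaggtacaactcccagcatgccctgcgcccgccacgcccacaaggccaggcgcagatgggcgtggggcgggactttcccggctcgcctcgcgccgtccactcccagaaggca
Ube2c: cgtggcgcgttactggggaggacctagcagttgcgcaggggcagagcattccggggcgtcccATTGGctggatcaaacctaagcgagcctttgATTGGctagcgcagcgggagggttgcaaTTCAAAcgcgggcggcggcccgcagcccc
Pclaf: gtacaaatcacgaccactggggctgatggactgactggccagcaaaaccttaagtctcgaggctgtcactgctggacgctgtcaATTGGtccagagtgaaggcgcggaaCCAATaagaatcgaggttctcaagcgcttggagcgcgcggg
Mcm5: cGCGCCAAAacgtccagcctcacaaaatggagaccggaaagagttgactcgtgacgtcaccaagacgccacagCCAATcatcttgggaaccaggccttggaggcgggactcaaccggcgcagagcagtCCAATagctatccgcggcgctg

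In the full 250 bases before the start, 4 of the 6 rule genes held a CHR, against 15.9% of 21263 windows of 17492 protein-coding genes, and 5 of 6 held at least 2 CCAAT boxes, against 11.4%. Of 81 windows of 74 matched genes of mitosis (87 listed), 27.2% held a CHR and 66.7% a CCAAT, the latter against 35.4% of all windows. Of 53 windows of 42 matched S-phase genes (51 listed), 18.9% held a CHR, 56.6% a CCAAT and 18.9% an E2F motif. The E2F letters stood in 6.17% of the mitosis windows and in 2.35% of all windows. These are matches of letters and not measured binding sites, and none of the 27 histone genes matched a window.

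The Met-1 library held 20172911 UMIs in its kept cells and the PyMT library 4309454, and no barcode was shared between them. A doublet caller (Scrublet) marked 0 of 68 and 0 of 16 cycling cells, among 20 calls in the Met-1 library (0.937% of its cells) and 0 in the PyMT library. The cycling cells summed to 893080 UMIs in Met-1 and 194941 in PyMT, so that a sum of 50 UMIs stood for 56.0 UMIs per 1e6 UMIs of those cells (CPM) and 256 CPM.

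Cd68, Ms4a7 and Adgre1, macrophage genes that the rule did not use, were each found in most of the cycling cells of both tumors. The T cells set beside them were chosen by T cell genes and by low counts of the rule's macrophage genes. Low shares of macrophage genes in T cells were therefore partly fixed by that choice, and nothing on identity was read from the contrast. Cd68, a lysosomal protein of macrophages, was detected in 63 of 68 Met-1 and 13 of 16 PyMT cycling cells, against 3.86% and 7.32% of T cells of the same libraries. Ms4a7, a membrane protein of macrophages, was detected in 60 and 14 cycling cells, against 10.6% and 7.32% of T cells. Adgre1, which encodes F4/80, was detected in 49 and 9 cycling cells, against 2.57% of 311 and 0 of 41 T cells, the latter allowing up to 7.32%. Mrc1, the mannose receptor, was found in only 8 and 4 cycling cells. Apoe was in all 84 but also in 79.1% and 87.8% of T cells, a background that leaves its detection uninformative. The median depth was 10256 and 10545 UMIs in cycling cells and 8033 and 3868 UMIs in T cells.

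The rule itself fixed much of the rest. It used Aif1, found in 65 and 15 cycling cells, Csf1r, found in 57 and 13, and the C1q subunits, of which 64 of 68 and 16 of 16 cells held at least 5 UMIs. Stmn1, which it did not use, was detected in 63 and 14. Fewer than 5 C1q UMIs together with at least 2 UMIs of the monocyte genes Ccr2 and Ly6c2 were found in 2 Met-1 cells and 0 PyMT cells. The wider list of 19 monocyte genes, several of which macrophages also express, had a median of 14.5 UMIs per cycling cell in Met-1 and 15.5 in PyMT, with 4 and 3 of the 19 at 0.

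Cycling cells made up nearly the same share of the macrophages in both tumors. They made up 9.12% of macrophages and monocytes in Met-1 (68 of 746, exact 95% binomial interval 7.15 to 11.4%) and 9.14% in PyMT (16 of 175, 5.32 to 14.4%). The wide PyMT interval contains the whole of the Met-1 interval, so a difference within it was not detectable with 175 cells. As a share of all kept cells they were 3.19% and 2.70%.

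The size of the share depended on depth in both tumors. After each cell was thinned to 2000 UMIs, 5.12% of Met-1 macrophages (35 of 683, 3.59 to 7.06%) and 4.94% of PyMT macrophages (8 of 162, 2.16 to 9.50%) still had at least 3 UMIs of the rule genes. The same cells had given 9.81% and 9.88% before thinning, and 63 and 13 shallower cells were left out. A weaker trace was common, since 174 of 746 and 45 of 175 macrophages had at least 1 such UMI.

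Neutrophils, which do not divide once mature, served as a background for free RNA. None of 33 Met-1 or 121 PyMT neutrophils reached 3 UMIs of the rule genes, which allows shares of up to 9.09% and 2.48%, and 0 and 6 of them had any. Their median depth was 2725 and 1691 UMIs, below the 7205.5 and 6535 UMIs of non-cycling macrophages. T cells, which can divide in tumors, reached 3 UMIs in 28 of 311 cells (9.003%) and 3 of 41 cells (7.32%) at median depths of 8033 and 3868 UMIs.

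**Figure D1:**
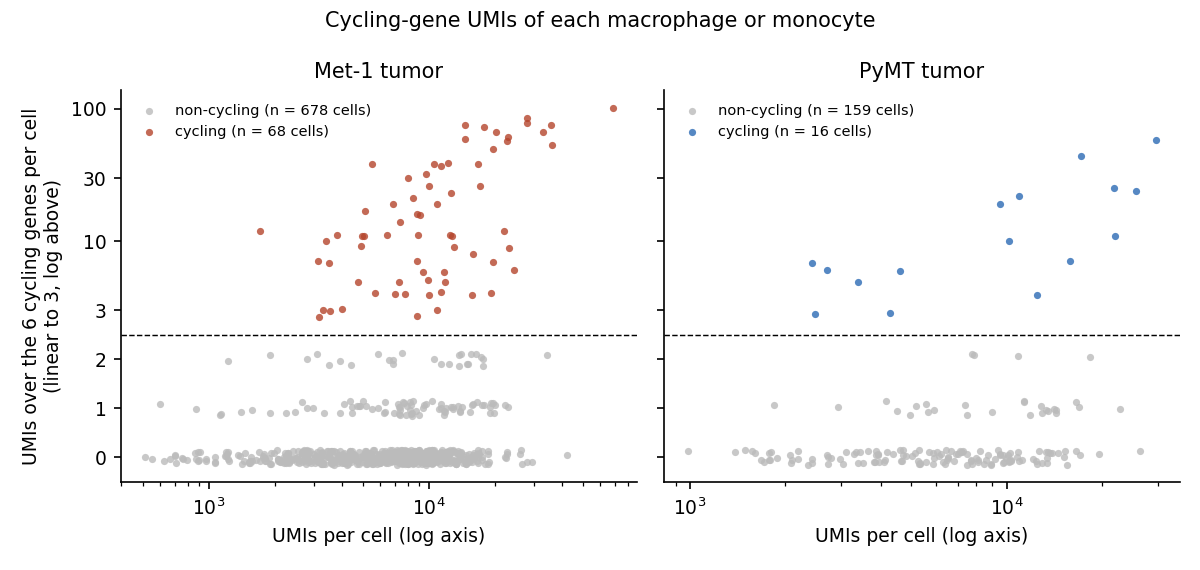
Each dot is a macrophage or monocyte of the Met-1 (left) or PyMT (right) tumor, with its total UMIs on a log axis and its UMIs over the 6 rule genes on an axis that is linear to 3 and logarithmic above; points are shifted slightly up or down to separate them. The dashed line is the cut at 3 UMIs: 68 Met-1 and 16 PyMT cells lie above it, reaching 101 and 58 UMIs.

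The cycling cells ranged widely in how much of this RNA they held. The UMIs of the rule genes per cell ran from 3 through a median of 11 to 101 in Met-1 and from 3 through 8.5 to 58 in PyMT. All 6 genes were detected in 17 Met-1 and 5 PyMT cells, whereas 3 Met-1 cells passed on a single gene. Cycling cells were also deeper, with a median of 10256 UMIs against 7205.5 in non-cycling cells of Met-1 and 10545 against 6535 in PyMT. Cells with more RNA pass a fixed count more easily: when the cut was set as 0.05% of a cell's UMIs instead, the ratio of the medians was 1.09 in place of 1.42 in Met-1 and 1.41 in place of 1.61 in PyMT.

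Among the 6 rule genes, Mki67, which coats mitotic chromosomes and is the common marker of proliferation, stood at 385 CPM in Met-1 cycling cells (95% Poisson interval 346 to 428) and 123 CPM in PyMT cycling cells (78.9 to 183), with 5.89 and 1.66 CPM in non-cycling cells. Top2a, the topoisomerase that untangles sister DNA, stood at 364 and 164 CPM, and Cdk1, the mitotic kinase, at 170.2 and 185 CPM. Birc5, the survivin subunit of the chromosomal passenger complex, stood at 268 and 262 CPM and Ube2c, which feeds the anaphase-promoting complex, at 254 and 174 CPM. Pclaf, which binds the sliding clamp PCNA, was at 361 CPM in Met-1, and in PyMT at 395 CPM and was found in the most cells, 55 of 68 and 14 of 16. Stmn1, a microtubule destabiliser that the rule did not use, was at 783 CPM against 32.5 in Met-1, 24.1-fold (interval 20.3 to 28.6), and at 872 against 45.7 CPM in PyMT, 19.1-fold (14.0 to 26.4).

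Against non-cycling macrophages, genes were called higher or lower where the ratio of (CPM + 10) over summed counts was at least 2-fold, among genes with at least 50 summed UMIs in either group. Fold values given with an interval are ratios of CPM without the added 10. In Met-1, 215 of 7589 genes were higher in cycling cells (2.83%) and 61 lower (0.804%). In PyMT, with fewer cells, 104 of 2919 genes were higher (3.56%) and 203 lower (6.95%). Counts were also simulated with Poisson error and with 200 genes changed 4-fold. There, 4.56% of unchanged genes were called in either direction in PyMT and 0.0135% in Met-1. The changed genes alter the total behind CPM and spread between cells was not simulated, so these are not rates of counting error alone. Genes of the cell cycle lists made up 98 of the 215 higher genes in Met-1 (45.6%) and 1.90% of all genes measured there. In PyMT they made up 16 of 104 (15.4%) and 1.23% of those measured. Because the rule chose the cells by such genes, these counts describe the cells and nothing was read from the shares. Where 50 UMIs were asked for in both groups, 132 higher and 11 lower genes were left in Met-1 and 40 and 8 in PyMT, so most of the lower calls in PyMT came from genes with fewer than 50 UMIs in its 16 cells.

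For the gene lists that follow, a member counted as measured with at least 20 UMIs in the groups together. By that rule 3.74% of 9727 genes were called higher in Met-1 cycling cells and 0.627% called lower, against 5.88% and 6.91% of 6035 genes in PyMT. The median log2 ratio over all those genes was -0.017 and 0.013, so list medians can be read against 0.

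Genes that license and fire replication origins stood higher together. In Met-1, 16 of 17 measured members were at least 2-fold higher and 0 lower (median log2 ratio 1.57), and in PyMT 7 of 10 were higher and 0 lower (median 1.76). Mcm5 was at 111 against 10.8 CPM in Met-1 and 118 against 12.5 CPM in PyMT. Gmnn, the licensing inhibitor geminin, had log2 ratios of 2.39 and 2.25, and Cdc45, which joins the helicase at firing, had 2.24 in Met-1. The smallest value in Met-1 was that of Cdt1, the loading factor destroyed in S phase, with 0.88 in Met-1 and 0.11 in PyMT.

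The DNA synthesis and nucleotide list behaved alike, with 23 of 31 members higher in Met-1 (median 1.56) and 15 of 18 in PyMT (median 1.48) and 0 lower in either. Rrm2, the cell cycle subunit of ribonucleotide reductase, was at 101 against 1.52 CPM in Met-1 and 144 against 1.66 CPM in PyMT. Tk1, thymidine kinase, was at 129 against 5.70 and 226 against 8.31 CPM, and Tyms, thymidylate synthase, at 118 against 8.18 and 113 against 9.14 CPM. Among the members short of 2-fold was Rfc2, a clamp loader subunit, with log2 ratios of 0.63 and 0.81. The repair factors that work at stalled forks were higher in 13 of 14 measured members in Met-1 and 3 of 3 in PyMT. Clspn, the checkpoint adaptor claspin, had a log2 ratio of 2.90 and Brca1, a homologous recombination factor, 2.32 in Met-1.

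The replication-dependent histones, whose mRNAs are made in S phase and mostly end in a stem-loop in place of a poly(A) tail, were prominent in Met-1 cycling cells. Hist1h1b, a linker histone, was at 387 CPM in Met-1 cycling cells (346 UMIs in 28 cells) against 3.23 in non-cycling cells. Hist1h2ae, a core histone, was at 309 against 7.03 CPM. In Met-1, 14 of 18 measured histone genes were higher and 0 lower (median 1.73), and summed over the 27 listed genes they made up 1573 against 163 CPM. In PyMT only 4 were measured, with 2 higher, and the sum was 477 against 151 CPM. Histone UMIs per cycling cell ran from 0 through a median of 4 to 113 in Met-1 and from 0 through 0.5 to 34 in PyMT. Several of these genes are near-identical in sequence, so the split of UMIs among them is uncertain.

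Genes that fold and package chromosomes were higher in 16 of 18 measured members in Met-1 (median 1.82) and 10 of 13 in PyMT (median 2.02), with 0 lower in either. Smc2, a condensin subunit, was at 213 against 10.3 CPM in Met-1 and 82.1 against 7.48 CPM in PyMT. H2afx, the histone variant phosphorylated at DNA breaks, was at 174 against 15.8 and 174 against 16.6 CPM. The whole list summed to 6634 CPM in Met-1 cycling cells and 6156 CPM in PyMT cycling cells, against 1869 and 1786 CPM in the non-cycling cells.

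Mitotic regulators were nearly all higher. Of the mitotic cyclins and kinases, 18 of 19 measured were higher in Met-1 (median 2.08) and 4 of 4 in PyMT (median 2.63). Ccna2, cyclin A2, was at 104 CPM in the cycling cells of Met-1 and 108 CPM in those of PyMT, with 3 UMIs in 678 and 0 UMIs in 159 non-cycling cells. The PyMT difference was at least 43.2-fold, taking 3 UMIs over the non-cycling group as the floor. Ccnb1, cyclin B1, was at 66.1 and 66.7 CPM and Ccnb2, cyclin B2, at 107 and 71.8 CPM, with at most 2.47 CPM for either gene in non-cycling cells. Aurkb, the kinase of the chromosomal passenger complex, had a log2 ratio of 2.75 in Met-1 and Foxm1, the transcription factor of G2, 1.62.

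The kinetochore list had 27 of 30 measured members higher in Met-1 (median 1.83) and 4 of 4 in PyMT (median 1.35). Cenpe, the kinesin that brings chromosomes to the spindle equator, was at 196 against 4.18 CPM in Met-1 and 30.8 against 0.831 CPM in PyMT. Spindle and cytokinesis genes were higher in 31 of 31 measured members in Met-1 (median 2.41) and 10 of 11 in PyMT (median 2.40). With thinned counts, Ckap5 and Kif18a changed sign in Met-1, to log2 ratios of -0.39 and -0.57. Prc1, which bundles the central spindle, was at 205 against 3.23 and 71.8 against 0.831 CPM, and Cdca8, the borealin subunit of the passenger complex, at 143 against 3.04 and 139 against 2.49 CPM. No member of these 3 mitotic lists was called lower in either tumor.

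Mitotic exit genes were mixed. In Met-1, 4 of 11 were higher and in PyMT 3 of 8, with medians of 0.48 and 0.78. Cdc20, the activator of the anaphase-promoting complex, was at 67.2 against 1.14 CPM in Met-1, and Cdca3, a mitotic entry factor, at 119.8 against 1.90 CPM in Met-1 and 169 against 1.66 CPM in PyMT. Core subunits of that complex differed little, Cdc27 and Cdc16 having log2 ratios of 0.34 and 0.19 in Met-1. Pttg1, securin, had -0.14 in Met-1 and 0.54 in PyMT.

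**Figure D2:**
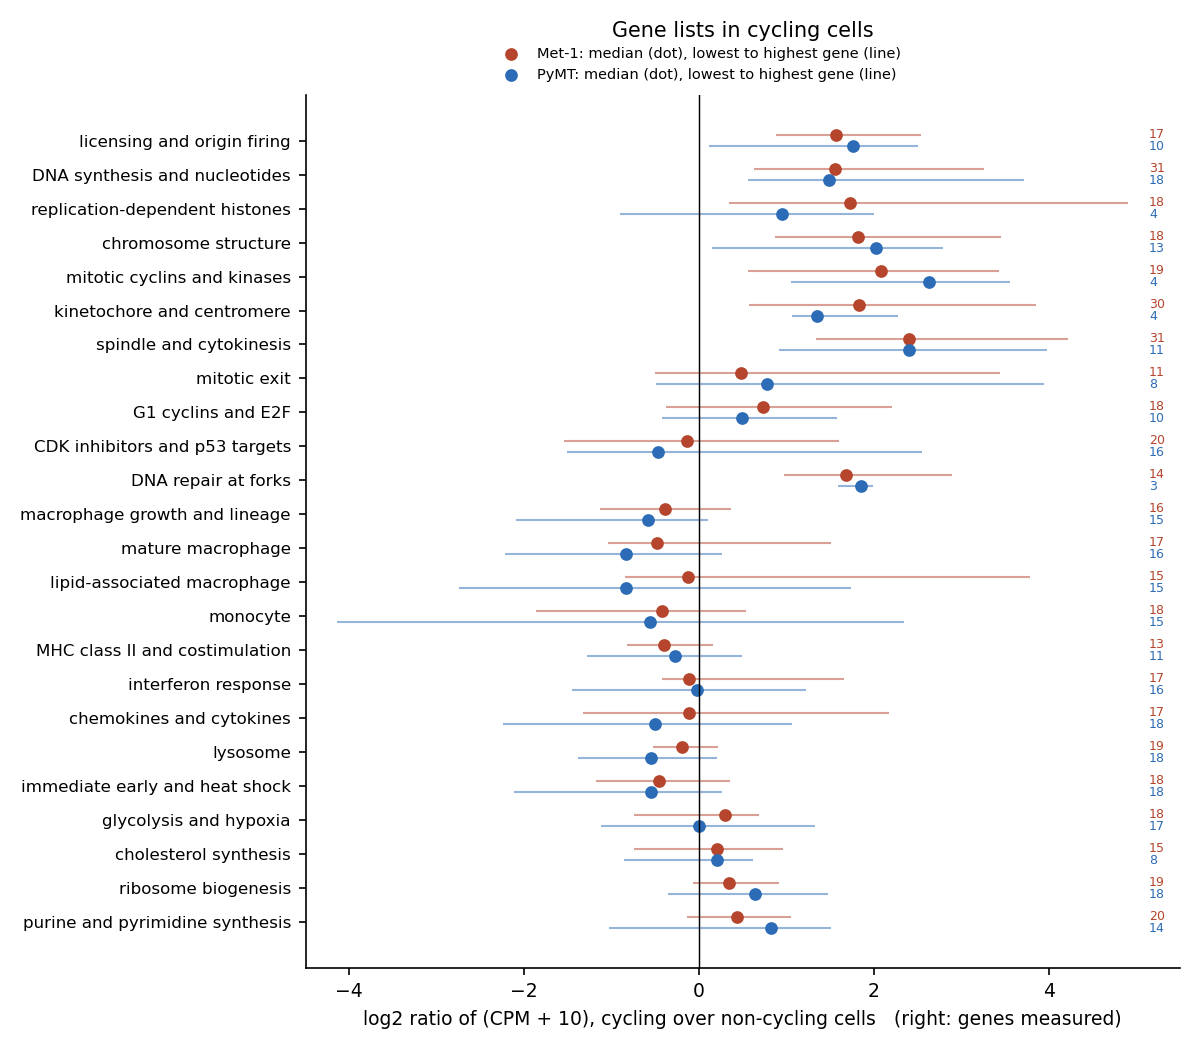
For each gene list, the dot is the median and the line the span of the log2 ratios of (CPM + 10), cycling over non-cycling cells, in each tumor; the numbers at the right are the genes measured. Lists of S phase and mitosis other than mitotic exit have medians from 0.95 to 2.63, whereas macrophage lists have medians from -0.84 to -0.13.

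Upstream of S phase the differences were smaller than in the S-phase lists. Of the G1 cyclins, E2F factors and their partners, 5 of 18 measured were higher in Met-1 (median 0.73) and 1 of 10 in PyMT (median 0.49), with 0 lower in either. The higher shares were 27.8% and 10.0%, beside 3.74% and 5.88% of all genes. The list summed to 774 against 426 CPM in Met-1 and 769 against 444 CPM in PyMT. Ccne1, cyclin E1, was at 50.4 against 3.04 CPM in Met-1 (log2 ratio 2.21, but -0.49 with each cell thinned to 2000 UMIs), and E2f8, a repressor made in S phase, had a log2 ratio of 2.13. Myc had 0.34 in Met-1 and -0.43 in PyMT, and Rb1, the retinoblastoma protein, -0.38 and 0.49.

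Brakes on the cycle were not higher as a group: of the CDK inhibitors and p53 targets, 2 of 20 measured were higher and 1 lower in Met-1 (median -0.14), and 1 and 5 of 16 in PyMT (median -0.47). Cdkn2c, the p18 inhibitor of CDK4 and CDK6, was the exception in both tumors, at 37.0 against 5.51 CPM in Met-1 (6.70-fold, interval 3.95 to 11.4) and 97.5 against 8.31 CPM in PyMT (11.7-fold, 5.19 to 28.3). The other higher member in Met-1, Cdkn2a, rested on 14 UMIs, 42.9% of them in 1 cell. Gadd45g, a stress gene that restrains the cycle, was at 52.6 against 172 CPM in Met-1 (3.27-fold lower, 2.44 to 4.49) and at 87.2 against 162 CPM in PyMT. Btg2, an antiproliferative gene, was at 643 against 1043 CPM in Met-1 and 205 against 579 CPM in PyMT.

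Nearly every cycling cell held RNA of both S phase and mitosis, so the cells were placed by which list gave more UMIs, with the 6 rule genes left out. Of the mitotic lists, Tuba1b, Tubb5, Tubb4b, Stmn1, Ckap5, Anapc11, Anapc13, Cdc16, Cdc27 and Fzr1 were left out as well. S-phase UMIs (licensing and DNA synthesis) exceeded mitotic UMIs in 26 Met-1 and 4 PyMT cells, mitotic UMIs exceeded in 42 and 11, and 1 PyMT cell was level. The cut is not a natural gap, since 21 and 3 cells lay within 1.5 times of equality. After thinning to 2000 UMIs, at least 2 UMIs of each kind were found in 74.6% of 67 cycling and 13.1% of 616 non-cycling Met-1 cells and in 75% of 16 and 10.3% of 146 PyMT cells.

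Genes differed between the 26 and 42 Met-1 cells in the order of the cycle, which the split by those same lists largely fixes. Rrm2 stood at 197 CPM in the cells with more S-phase RNA and 35.6 in those with more mitotic RNA, Mcm5 at 186 and 60.0, and Pcna, the sliding clamp, at 269.8 and 112. Cenpf, a late kinetochore protein, stood at 11.1 and 221 CPM, Cdc20 at 5.56 and 109, and Ccnb1 at 13.9 and 101. Genes that the split did not use can be set beside these. Ccne2, cyclin E2, was at 55.6 and 9.37 CPM, and Ube2c at 44.5 and 395. Pclaf was at 526 and 249 CPM, the reverse order of Ube2c, while Stmn1, a listed mitotic gene left out of the split, was level at 784 and 782. In the 4 and 11 PyMT cells some genes kept the order seen in Met-1. Ube2c was at 0 and 247 CPM, and Mcm5, which the split used, at 190 and 94.5. Ccne2 was at 19.0 and 7.27 CPM, with 1 UMI in each group. Others differed from Met-1. Pclaf was at 114 and 501 CPM, Stmn1 at 398 and 1032, and Rrm2, which the split used, at 75.9 and 174, on 4 and 24 UMIs. The deepest PyMT cell held 29 of 77 Pclaf and 63 of 170 Stmn1 UMIs. The histone Hist1h1b was at 431 and 358 CPM, and 8 of the 26 and 20 of the 42 cells had it. Apoe was 18679 against 17049 CPM.

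**Figure D3:**
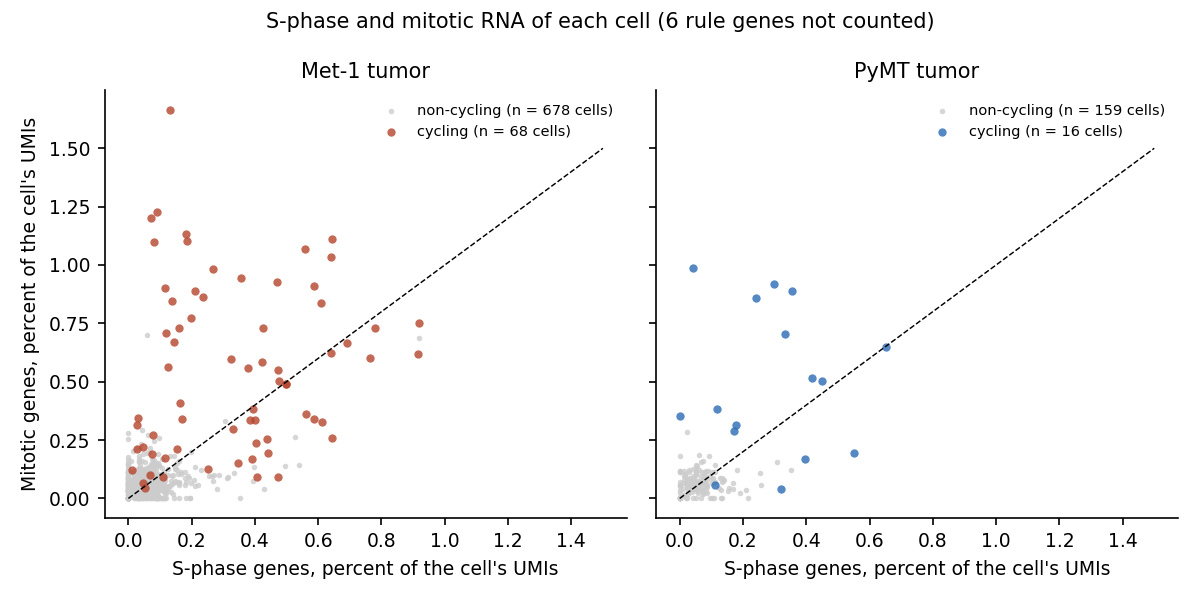
Each dot is a cell, with the percent of its UMIs in S-phase genes (licensing and DNA synthesis, x axis) and in mitotic genes (y axis). The 6 rule genes and the other mitotic genes left out of the split were not counted. The dashed line marks equal percents. Most non-cycling cells crowd near the origin in both tumors, and of the cycling cells 42 of 68 in Met-1 and 11 of 16 in PyMT lie above the line.

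Cells just below the cut held some of the same RNA. Binned by 0, 1, 2, 3 to 5, 6 to 20 and over 20 UMIs of the rule genes, the Met-1 macrophages numbered 572, 80, 26, 17, 27 and 24 cells. Their mitotic RNA, without the rule genes and the other genes left out of the split, stood at 683, 700.0, 888, 2016, 3595 and 8076 CPM. Their S-phase RNA stood at 638, 577, 971, 2349, 3080.5 and 3458 CPM. In PyMT, bins of 130, 25, 4, 4, 7 and 5 cells had mitotic RNA at 719, 722, 913, 1590.0, 3797 and 5631 CPM. Their S-phase RNA stood at 599.9, 734, 1515, 1148, 3797 and 3386 CPM. By mitotic RNA, the cells with 2 UMIs lay closer to the cells with 0 than to those with 3 to 5 in both tumors. Between the last 2 bins mitotic RNA differed more than S-phase RNA in both. The 4 PyMT cells in each of the bins with 2 and with 3 to 5 UMIs give wide intervals, such as 1114 to 2201 CPM for mitotic RNA in the latter.

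C1qa and Spi1 stood at similar levels in both states, and several mature and lineage genes stood lower in cycling cells. C1qa was at 5174 against 5376 CPM in Met-1 and 5058 against 5912 CPM in PyMT, and Spi1, the PU.1 factor that specifies myeloid cells, at 376 against 400.4 and 457 against 490.1 CPM. C1qa is among the genes that chose all macrophages. Of the others, Aif1 and Lyz2 were uneven, given here without the deepest cycling cell of each tumor. Aif1 was at 820 against 761 CPM in Met-1 and 726 against 1072 CPM in PyMT. Lyz2 was at 3132 against 5654 CPM in Met-1 and 6741 against 6470 CPM in PyMT. Csf1r, the receptor for the growth factor CSF1, was at 501 against 668 CPM in Met-1 and 400.1 against 644 CPM in PyMT, 1.34-fold (1.21 to 1.48) and 1.61-fold (1.27 to 2.06) lower. Of the lineage and growth list, 0 of 16 measured members were called higher and 3 lower in Met-1 (median -0.39), and 0 and 6 of 15 in PyMT (median -0.59).

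Cebpa, a factor of myeloid maturation, was at 225 CPM in Met-1 cycling cells (195 to 258) against 503 CPM (484 to 523) in non-cycling cells, and in PyMT at 97.5 (58.7 to 152) against 297 CPM (267 to 329). It was lower by 2.24-fold (1.94 to 2.59) and 3.04-fold (1.92 to 5.11). Klf4 was lower in Met-1, at 184 against 414 CPM, and at 164 against 203 CPM in PyMT.

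These levels are shares of a cell's RNA. Counted per cell, Cebpa was at 2.96 UMIs in cycling against 3.90 in non-cycling Met-1 cells and 1.19 against 2.25 in PyMT, smaller gaps than those in CPM. C1qa in turn was higher per cell, at 68.0 against 41.7 UMIs in Met-1 and 61.6 against 44.8 in PyMT. A lower CPM in cells with more RNA and a lower number of molecules per cell therefore have to be read apart here.

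The mature macrophage list had 2 of 17 measured members higher and 1 lower in Met-1 (median -0.48), and 0 and 6 of 16 in PyMT (median -0.84). The 2 higher members in Met-1 were Pf4 and Folr2, of which a single cell held 111 of 176 and 10 of 14 UMIs. Apoe, the lipid carrier that was the most abundant of them, was at 17705 against 33435 CPM in Met-1 and 15923 against 33218 CPM in PyMT, 1.89-fold and 2.09-fold lower. Over the 6 bins of rule-gene UMIs, Apoe stood at 33949.5, 34179, 23611, 17224, 23623 and 14581 CPM in Met-1 and at 34133, 32851, 16751, 33566, 18522 and 10463 CPM in PyMT. The order was not steady, since the cells with 2 UMIs were already low in both tumors and the 4 PyMT cells with 3 to 5 UMIs were not. Per cell the Met-1 values were 252, 312, 253, 146, 233 and 293 UMIs. Selenop, a secreted selenoprotein of resident macrophages, was at 365 against 762 CPM in Met-1 and 477 against 1526 CPM in PyMT, where it was also lower per cell (5.81 against 11.6 UMIs). Mertk, a receptor for apoptotic cells, was at 33.6 against 73.0 CPM in Met-1 and had 1 UMI in the 16 PyMT cells against 73 in 159, a ratio of 11.8 with an interval of 2.06 to 473. The lipid-associated list had 3 of 15 members higher and 0 lower in Met-1 and 1 and 6 of 15 in PyMT. The 3 higher members in Met-1 were Arg1, Spp1 and Gpnmb, and without the deepest cycling cell, which held most of their UMIs, none of them was past 2-fold (log2 ratios -0.11, 0.17 and 0.045). Lysosomal genes had 0 of 19 and 3 of 18 members lower and 0 higher in either tumor, with medians of -0.19 and -0.54.

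**Figure D4:**
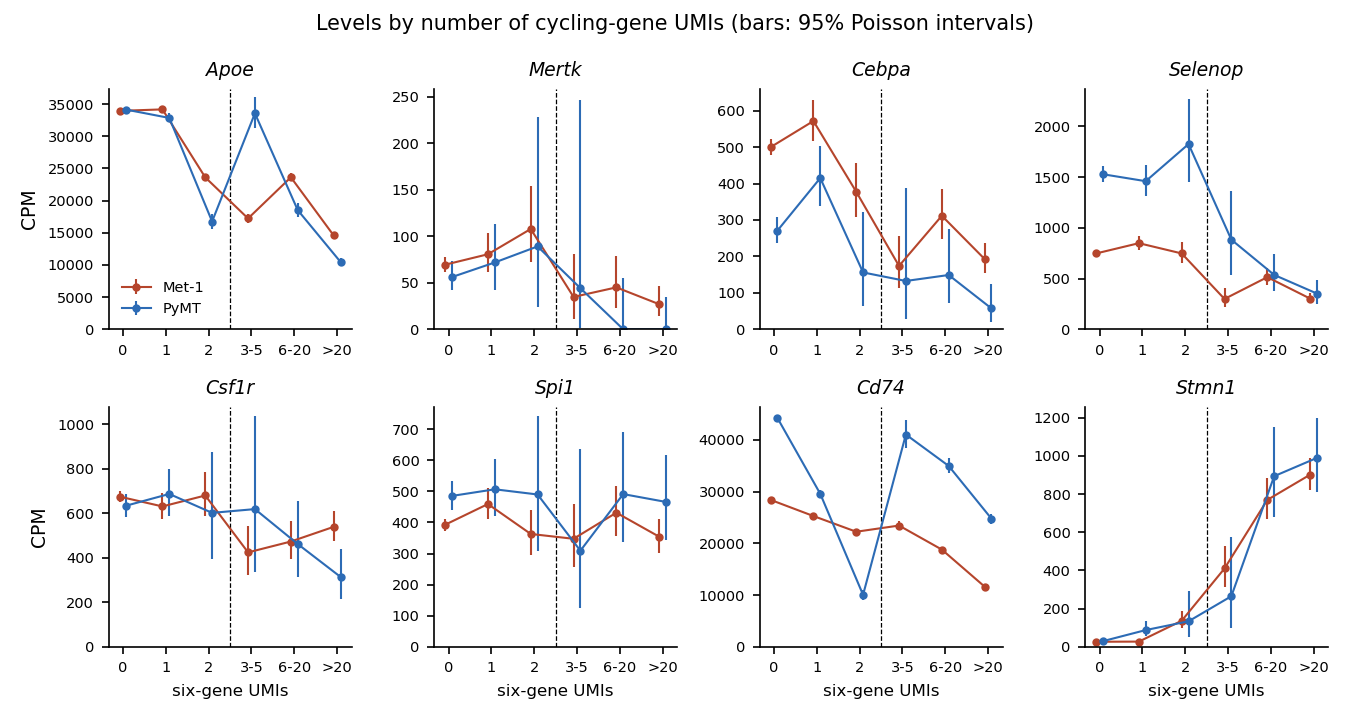
CPM of the genes named above each panel in macrophages binned by their UMIs over the 6 rule genes (x axis), with 95% Poisson intervals; the dashed line separates non-cycling from cycling cells. Selenop stands at 748, 849, 748, 299, 514 and 302 CPM in the Met-1 bins and 1529, 1460.4, 1827, 883, 536 and 352 CPM in the PyMT bins, lower to the right of the line in both.

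The monocyte list summed to 1777 against 2513 CPM in Met-1 and 2016 against 2704 CPM in PyMT. Of that list, 0 of 18 measured members were higher and 6 lower in Met-1 (median -0.42), and 2 and 4 of 15 in PyMT (median -0.56). Chil3 had 0 UMIs in 68 Met-1 cycling cells against 126 UMIs in 18 of 678 non-cycling cells, too few cells to read a difference from 0 of 68. Plac8 was at 60.5 CPM, in 7 cells, against 217 CPM, in 61 cells, in Met-1. In PyMT it was at 0 against 167 CPM in 17 of 159 cells, likewise few beside 0 of 16. Any Ccr2 or Ly6c2 UMI was found in 8.82% of cycling and 9.59% of non-cycling Met-1 cells, and in 31.2% (11.0 to 58.7%) and 22.0% of PyMT cells, so the share of cells with these genes did not separate the states. The 2 higher members in PyMT, S100a4 and Fn1, had 74.2% of 97 and 38.5% of 26 UMIs in 1 cell each.

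Antigen presentation genes stood lower as a sum, by less than 2-fold. The MHC class II list summed to 33415 against 54165 CPM in Met-1 and 59315 against 72988 CPM in PyMT, with 0 of 13 and 1 of 11 members called lower and 0 higher. Cd74, the invariant chain, was at 15673 against 27642 CPM in Met-1 and 30163 against 39894 CPM in PyMT. Per cell it was 206 against 214 UMIs in Met-1 and 368 against 302 in PyMT. The immediate early and heat shock list, which dissociation of tissue is known to induce, had 1 of 18 members lower in Met-1 (Jund, log2 ratio -1.18) and 5 of 18 in PyMT, with medians of -0.45 and -0.55.

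Interferon genes hardly differed, with 2 of 17 higher and 0 lower in Met-1 (median -0.12) and 2 and 2 of 16 in PyMT (median -0.019). Cxcl10, an interferon-induced chemokine, was at 691 against 213 CPM in Met-1, with 44.7% of its 617 UMIs in 1 cell. It was at 354 against 311 CPM in PyMT. Of the chemokines and cytokines, 3 of 17 were higher and 1 lower in Met-1 and 1 and 5 of 18 in PyMT. Ccl12, a monocyte attractant, was at 579 against 199 CPM in Met-1 with 29.6% of its 517 UMIs in 1 cell.

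Few genes of the biosynthesis lists were past 2-fold, apart from purine and pyrimidine synthesis in PyMT. Ribosome biogenesis had 0 of 19 members higher in Met-1 and 1 of 18 in PyMT, with medians of 0.34 and 0.65. Nhp2, a protein of the particles that modify ribosomal RNA, was at 109.7 against 56.9 CPM in Met-1 and 241 against 80.6 CPM in PyMT. Purine and pyrimidine synthesis had 1 of 20 and 4 of 14 members higher (medians 0.43 and 0.83), and 0 and 1 lower. The higher shares were 5.0% and 28.6%, beside 3.74% and 5.88% of all genes. Paics, an enzyme of the purine ring, was 2.37-fold higher in Met-1 (1.80 to 3.09), and Mthfd2, the mitochondrial folate enzyme, 2.27-fold (1.58 to 3.20) in Met-1 and 3.66-fold (1.84 to 7.04) in PyMT. With thinned counts the PyMT log2 ratio of Mthfd2 was -1.76 in place of 1.51. Glycolysis had 0 of 18 members called in Met-1 (median 0.30) and 1 higher and 1 lower of 17 in PyMT. Cholesterol synthesis had none called in either tumor by this 2-fold rule, of 15 and 8 measured.

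Outside the cell cycle lists, several of the genes with high ratios in Met-1 work in division. Cdkn3, a mitotic phosphatase (log2 ratio 2.59, 23 of 68 cells), Knstrn, a kinetochore adaptor (2.36, 26 cells), Plk4, the kinase of centriole duplication (2.26, 24 cells), Hells, a chromatin remodeller (2.08, 31 cells), and Ezh2, the Polycomb methyltransferase (2.01), were each found in many cells. Ezh2 was at 111 against 19.96 CPM in Met-1, in 37 of 68 cells, and 123 against 12.5 CPM in PyMT, in 9 of 16 cells.

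Other high ratios rested largely on a single cell. The deepest Met-1 cycling cell, with 68595 UMIs (7.68% of all UMIs of the cycling cells) and 101 UMIs of the rule genes, held 139 of 140 UMIs of Arg1, the arginase of alternatively activated macrophages, and 446 of 498 of Spp1, osteopontin. It also held 313 of 465 UMIs of Prdx6, 111 of 176 of Pf4, 44 of 53 of Gpnmb and 2548 of 5130 of Lyz2, but 19 of 13997 of Cd74. Without that cell the log2 ratio of Arg1 was -0.11 in place of 3.79, that of Spp1 0.17 in place of 3.13, and that of Lyz2 -0.85 in place of 0.023. That of Cebpa was -1.07 in place of -1.13. Another Met-1 cell, with at least 2 UMIs of dendritic cell genes, held every UMI of Il12b (126), the interleukin 12 subunit.

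The PyMT library had a like cell, with 29672 UMIs (15.2% of those of its 16 cycling cells). It held 29 of 77 Pclaf, 63 of 170 Stmn1, 72 of 97 S100a4 and 41 of 70 S100a10 UMIs but 0 of 19 Cebpa UMIs. Without it the log2 ratio of Cebpa was -1.29 in place of -1.51, that of Stmn1 3.56 in place of 3.99, and that of S100a4 0.69 in place of 2.35.

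Markers of most other cell types were not at 0. The 5 adipocyte genes listed (Adipoq, Plin1, Cidec, Lep and Adrb3) had 0 UMIs in all 84 cycling cells. The T cell list stood at 60.5 against 27.9 CPM in Met-1 and 66.7 against 27.4 CPM in PyMT, higher in the cycling cells of both tumors. It ran from 0 to 27 UMIs per cycling cell in Met-1 and 0 to 11 in PyMT, with Cd3e, Cd8b1 and Trdc at 0 in Met-1 and Cd3d, Trbc1, Cd2 and Trdc in PyMT. At least 5 T or NK cell UMIs were found in 2 of 68 and 1 of 16 cycling cells, against 7 of 678 and 1 of 159 non-cycling cells. That PyMT cell held 69 of 77 UMIs of Ccl5, a T cell and macrophage chemokine, whose log2 ratio was 1.06 with it and -1.65 without. In Met-1 the Ccl5 value was 1.05 and, without the 2 cells and their non-cycling counterparts, 0.65. Leaving these cells out gave cycling shares of 8.96% and 8.67%.

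B cell genes stood at 123 against 141 CPM in Met-1 and 103 against 105 CPM in PyMT. Luminal epithelial genes stood at 71.7 against 82.9 CPM in Met-1 and 292 against 204 CPM in PyMT, with Krt19 at 0 in both and a range of 0 to 9 and 0 to 20 UMIs per cycling cell. At least 5 luminal UMIs were found in 1 of 68 Met-1 and 4 of 16 PyMT cycling cells. Of non-cycling cells, 10 of 678 and 6 of 159 had as many. Fibroblast genes stood at 67.2 against 102 and 25.6 against 14.95 CPM, with Pdgfra at 0, and conventional dendritic cell genes at 316 against 365 and 221 against 363 CPM. At least 5 UMIs over the 10 dendritic genes listed were found in 22 of 68 and 3 of 16 cycling cells. Of non-cycling cells, 153 of 678 and 33 of 159 had as many. The part of these cells in the values above was not tested beyond the cells left out.

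EGFP, the reporter that the sort selected, stood at a similar level in both states. Its UMIs were found in 68 of 68 Met-1 and 13 of 16 PyMT cycling cells, against 97.1% and 86.8% of non-cycling cells. The level was 4332 against 4301 CPM in Met-1, a ratio of 1.01 (0.973 to 1.04), and 2447 against 2940.3 CPM in PyMT, 0.832 (0.755 to 0.916). Without the deepest PyMT cycling cell the PyMT level was 2777 CPM and the log2 ratio -0.082 in place of -0.26. Among the Met-1 cycling cells it was 3451 CPM in those with more S-phase RNA and 4926 CPM in those with more mitotic RNA.

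Genes measured in both tumors could be set side by side, each tumor against its own non-cycling cells. Of 2908 such genes, 71 were higher in Met-1 and 102 in PyMT, and 42 were higher in both, 59.2% of the first list and 41.2% of the second. Of all genes measured in each tumor on its own, 2.83% were higher in Met-1 and 3.56% in PyMT, and 0.804% and 6.95% lower. The same rule genes chose the cells in both tumors, so a shared set of higher genes was partly built in. Nothing was read from the size of the overlap. Of the 42, 14 were in the cell cycle lists and 28 outside them. Among the latter, Ran, the GTPase of nuclear transport and spindle assembly, had log2 ratios of 1.56 and 1.66, Ptma, prothymosin alpha, 1.13 and 1.41, Dek, a chromatin protein, 1.72 and 1.85, and Hmgn1, a nucleosome binding protein, 1.23 and 1.93. These 4 were picked after their values were seen. Lower in both tumors were 11 genes of 27 and 201 (40.7% and 5.47%), among them Cebpa, Selenop, Ccr2, Chil3, Hp, Plac8 and Lpar6. As given above, Chil3 in Met-1 and Plac8 in PyMT rest on few cells, and detection of Ccr2 or Ly6c2 did not separate the states. Hp had 1 UMI in the cycling cells of each tumor. Its Met-1 log2 ratio was 0.026 with only cells of at least 5 C1q UMIs.

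Cycling cells of the 2 tumors were then compared directly. Of 2731 genes with at least 50 UMIs in either, 396 were called toward Met-1 (14.5%) and 58 toward PyMT (2.12%). In non-cycling cells the same comparison gave 498 (6.60%) and 97 (1.29%) of 7546 genes. Because 50 UMIs stood for 56.0 CPM in the cycling cells of Met-1 and 256 CPM in those of PyMT, genes could enter at a lower level through Met-1. With 50 UMIs asked for in both groups, 7 genes were higher and 31 lower. The median log2 ratio over genes with at least 20 UMIs was 0.17 in cycling and 0.13 in non-cycling cells. By the rule of the lists, 14.3% and 3.27% of 5958 genes were higher and lower in cycling cells, and 5.14% and 1.39% of 9688 genes in non-cycling cells.

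Lists of the cycle differed in how far they stood apart between the tumors. Licensing genes summed to 1074 CPM in the cycling cells of Met-1 and 1057 CPM in those of PyMT, with 1 of 16 members higher in Met-1 and 0 lower. DNA synthesis genes summed to 2093 and 2211 CPM and the mitotic cyclins and kinases to 1128 and 1221 CPM, with 0 of 18 of the latter past 2-fold in either direction. Birc5 had a Met-1 to PyMT ratio of 1.02 (0.753 to 1.41), Cdk1 of 0.922 (0.637 to 1.36) and Ccna2 of 0.967 (0.597 to 1.63), intervals that include 1 and still allow differences of over 1.3-fold. Birc5 and Cdk1 are rule genes, so their levels in both tumors were partly set by the cut. The fork repair list had 5 of 12 members higher in Met-1 and 0 lower (41.7%, beside 14.3% of all genes) and sums of 816 and 539 CPM. The cycling cells summed to 893080 UMIs in Met-1 and 194941 in PyMT, so genes with few UMIs were measured mainly through Met-1. A member lower in Met-1 had little room to enter, and nothing was read from this share. The same limit holds for the other member counts between the tumors.

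Histones differed. Their sum was 1573 CPM in the cycling cells of Met-1 and 477 CPM in those of PyMT, with 9 of 14 measured members past 2-fold toward Met-1 and 1 toward PyMT (median 1.45), beside 163 and 151 CPM in non-cycling cells. Hist1h1b had 346 UMIs in 28 of 68 Met-1 cells and 1 UMI in 16 PyMT cells, a ratio of 75.5 with an interval of 13.5 to 2992. Hist1h2ae was at 309 and 20.5 CPM (15.1-fold, 5.82 to 55.7). Within the bins, histone RNA was 750.4 CPM in the 27 Met-1 cells and 74.4 CPM in the 7 PyMT cells with 6 to 20 rule-gene UMIs, and 2418 and 837 CPM in the 24 and 5 cells with more. Hist1h4i went the other way, at 21.3 and 66.7 CPM on 19 and 13 UMIs, but its log2 ratio was 1.70 with thinned counts in place of -1.29.

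Some mitotic genes were also higher in Met-1. Mki67 was at 385 and 123 CPM (3.13-fold, 2.07 to 4.95), Cenpe at 196 and 30.8 CPM (6.37-fold, 2.87 to 17.6) and Top2a at 364 and 164 CPM (2.22-fold, 1.54 to 3.30). With each cell thinned to 2000 UMIs the log2 ratio of Top2a was -0.23 in place of 1.10, so its direction was not stable. Mki67 and Top2a are rule genes, and a cut on their UMIs chose the cells of both tumors, so their ratios describe selected cells. Of the kinetochore list 6 of 27 members were higher in Met-1 and 1 lower, and of the spindle list 7 of 31 and 1. The shares of higher members, 22.2% and 22.6%, stand beside 14.3% of all genes, and here too genes with few UMIs were measured mainly through Met-1.

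Other differences between the tumors were present in non-cycling cells as well. The immediate early and heat shock list had 7 of 18 members higher in Met-1 cycling cells and 7 of 18 in non-cycling cells, with medians of 0.71 and 0.63. Hspa1b, an inducible heat shock protein, was at 252 CPM in Met-1 and 5.13 in PyMT cycling cells and at 401 and 50.7 CPM in non-cycling cells. Klf2 was at 553 and 51.3 CPM in cycling and 754 and 256 CPM in non-cycling cells, and Vegfa, the angiogenic factor, at 142 and 5.13 and at 159.9 and 15.8 CPM.

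In the other direction, Csn3, kappa casein of milk, was at 6.72 CPM in the cycling cells of Met-1 and 139 CPM in those of PyMT, and at 5.70 and 94.7 CPM in non-cycling cells. It is 1 of the luminal markers given above. Hmox1, heme oxygenase, was at 90.7 and 564 CPM in cycling cells, where 58.2% of the 110 PyMT UMIs lay in 1 cell, and at 148 and 510.0 CPM in non-cycling cells. With the cells chosen after thinning, its log2 ratio between cycling cells was 0.97 in place of -2.51. Slc9a3r1, a membrane scaffold, was at 85.1 and 308 CPM with 66.7% of the 60 PyMT UMIs in 1 cell. Cd74 was at 15673 and 30163 CPM in cycling and 27642 and 39894 CPM in non-cycling cells.

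**Figure D5:**
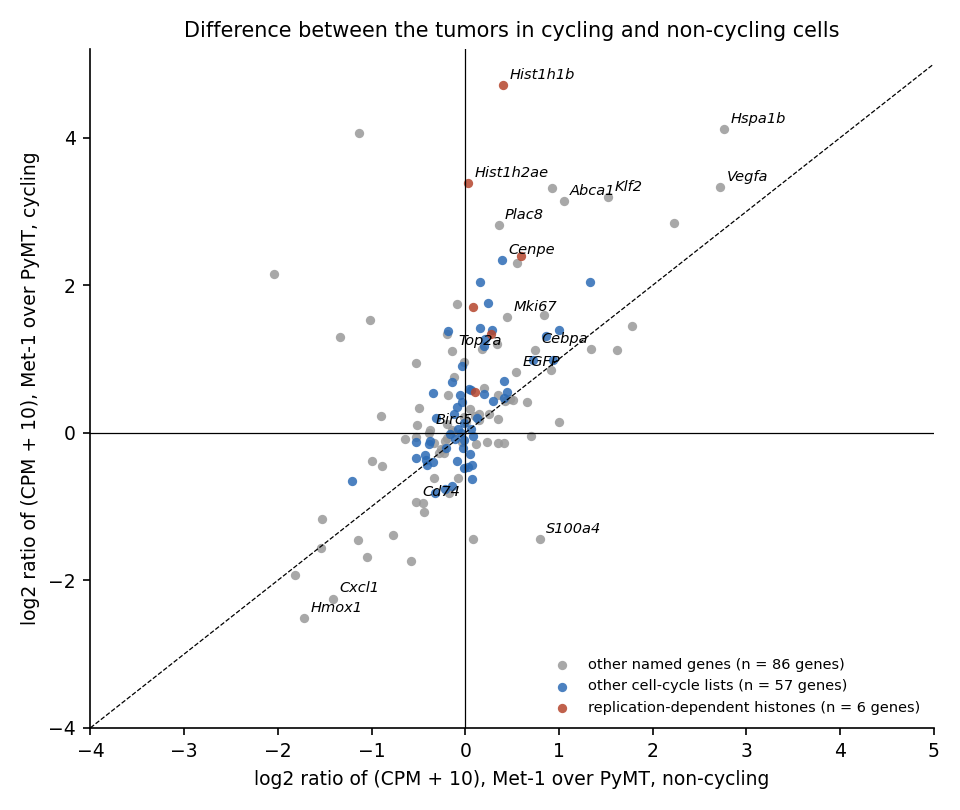
Each dot is a named gene measured in the cycling cells, whether or not it was measured in the non-cycling cells. The axes are its log2 ratio of (CPM + 10), Met-1 over PyMT, in non-cycling (x) and cycling cells (y). The dashed line marks equal ratios. Vegfa lies high on both axes, at 2.72 and 3.33, whereas the histone gene Hist1h1b lies far above it, at 0.40 and 4.72.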

How the data were processed

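The authors deposited UMI counts per gene and barcode for 2 10x Genomics libraries, made with Cell Ranger 3.1.0 on mm10 per the submitters' processing notes. The gene annotation behind the counts is not named there. From these counts, cells were chosen by the rule given above, UMIs were summed per library and state, and sums were scaled to CPM. Log2 ratios are of (CPM + 10), and a gene was called past 2-fold on that ratio with at least 50 summed UMIs in either group. Fold values and ratios given with an interval are of CPM without the added 10, and for genes at low CPM they can be much larger. Intervals are 95% exact Poisson for levels, conditional binomial for ratios and Clopper-Pearson for shares. Named genes were the rule and marker genes, EGFP, the 12 highest and 12 lowest outside the cell cycle lists in Met-1, the 6 highest and 6 lowest (other lists 3 and 3) of each list, and the 10 highest and 10 lowest between tumors, leaving out mitochondrial, ribosomal protein, haemoglobin, unnamed and antisense genes; a few genes are not reported here. The cells, and the 36 gene lists, were chosen with earlier results of these data known. Doublets were called with Scrublet in scanpy 1.11.5 and none was removed. Scripts (Python 3.11.15, numpy 2.4.6, scipy 1.17.1, pandas 2.3.3) were tested on simulated data. All 200 genes changed 4-fold were called in each tumor. Of the unchanged genes, 1 (0.0135%) was called past 2-fold in Met-1 and 125 (4.56%) in PyMT. Alternatives covered the cut, depth, pseudocount, UMI minimum, cell weighting, centring and single cells.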

Additional observations from a re-analysis of the deposited data

Results flagged for a closer look

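Chemokine genes Ccl7 and Pf4 stood on opposite sides in the 2 tumors. Ccl7, a monocyte attractant, had a log2 ratio of 2.17, cycling over non-cycling cells, in Met-1 and -2.02 in PyMT. Pf4, a platelet factor that macrophages also make, had 1.51 in Met-1 and -1.04 in PyMT. The difference was not tested, since each tumor has 1 library. In Met-1 the deepest cycling cell held 61 of 132 UMIs of Ccl7 and 111 of 176 UMIs of Pf4, and without it the values were 1.45 and 0.29.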

How the results depend on the processing

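No paired analysis was possible because each tumor has 1 library and the labels carry no replicate numbers. With 1 library per tumor and 16 PyMT cells, calls in PyMT rest on few UMIs. Of the shares and counts recomputed, 95 stayed within their limits and 39 moved; of the other values 12095 stayed, 2181 moved and 46 changed sign. The cause was not tested, except that a UMI minimum or thinning by construction leaves other genes or fewer UMIs. A minimum of 2 UMIs of the rule genes gave a share of 12.6% in Met-1, and 26 genes lower in Met-1 and 115 in PyMT. Choosing cells after thinning to 2000 UMIs gave shares of 4.83% and 4.42%, 152 genes lower in Met-1, and 245 higher and 519 lower in PyMT. Thinned counts gave 96 higher and 265 lower in Met-1, 28 and 97 in PyMT, and 39 and 11 between tumors. A pseudocount of 1 gave 336 and 324 in Met-1. A pseudocount of 50 gave 107 and 5 in Met-1, 41 and 47 in PyMT, and 132 and 33 between tumors. A minimum of 20 UMIs gave 339 higher in Met-1, 256 and 417 in PyMT, and 831 and 138 between tumors. Asking 50 UMIs of both groups gave 132 and 11, 40 and 8, and 7 and 31. Weighting cells equally gave 123 lower in Met-1 and 88 between tumors, and centring on the median gene 112 between tumors. Without the top cell of each gene 120 were lower in Met-1, and 46 higher and 414 lower in PyMT.

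Log2 ratios that changed sign follow. Cycling over non-cycling in Met-1, a minimum of 2 UMIs gave Gzma 3.07 and Gzmc 1.43, and leaving out cells with dendritic UMIs gave Il12b -0.89. Choosing cells after thinning gave Arg1 -1.75, Spp1 -1.27, Prdx6 -0.39, Gpnmb -1.23 and S100a8 -0.56, and thinned counts gave Gzmc 0.17, Ckap5 -0.39, Kif18a -0.57, Ccne1 -0.49, Folr2 -0.41 and Gpnmb -0.54. Without the top cell of each gene, Arg1 was -0.016, Il12b -0.56 and S100a8 -0.32. In PyMT, choosing cells after thinning gave Slc9a3r1 -0.24, Gpnmb -1.21 and Ccl5 -3.07, thinned counts gave Hist1h4i -0.75 and Mthfd2 -1.76, and leaving out the top cell gave Slc9a3r1 -0.17 and Ccl5 -1.39. Between the tumors' cycling cells, leaving out dendritic UMIs gave Il12b -1.61, and choosing cells after thinning gave Spp1 -2.50, Prdx6 -0.091, Plac8 -0.42, Gzmc -2.31 and Hmox1 0.97. Thinned counts gave Top2a -0.23, Spp1 -0.31, Hist1h4i 1.70, Ccne1 -2.04, Mertk -0.050, Pf4 -0.061 and Wfdc18 0.090, equal weights gave Pf4 -0.052, and leaving out the top cell gave Spp1 -0.91 and Il12b -0.66. Alternatives chosen after seeing the data gave Hp 0.026 in Met-1 (cells with at least 5 C1q UMIs), Gzmc 0.10 in Met-1 and Ccl5 -1.65 in PyMT (without cells holding T or NK cell UMIs), and Arg1 -0.11 and S100a8 -0.35 in Met-1 and Spp1 -0.91 between tumors (without the deepest cell).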
